A study of Aspergillus nidulans with 4 samples.

Results

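RNA of 51 ribosomal protein genes was compared between an Aspergillus nidulans strain that lacks mpkA and its parental strain. The 51 genes are those of the 10930 rows of the deposited 2-strain table whose annotation text holds the phrase structural constituent of ribosome (34 genes) or ribosomal protein (17 genes) and does not mention mitochondria. The rule reads annotation text and no measured value, but the class was taken up with earlier results of these data known. All 51 matched a RefSeq locus tag, and 7 carry a RefSeq symbol. The deletion strain is AN1404, genotype -mpkA, and the strain it was set against is AN1405, named only as the parental strain. The labels name no other alleles of the 2 strains. After a preculture of 12 h, both were grown without added stress at 28 °C in yeast extract and glucose medium brought to pH 3.3. Mycelium was taken after about 20 h of culture, in late exponential phase. There were 2 libraries per strain, made with a kit that does not mark the strand. The submitters mention biological as well as technical replicates but not which library is of which kind, so p-values measure the spread among these 4 libraries and that spread may be technical.

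Each ribosome is built from a small subunit, which reads the mRNA, and a large subunit, which joins the amino acids. Their proteins are needed in near equal numbers, and in yeast and other fungi the nuclear genes for them are controlled together and follow growth rate and nutrient supply. MpkA is a mitogen-activated protein kinase (MAP kinase) and acts last in the kinase cascade that makes up the cell wall integrity pathway. In budding yeast, stress at the plasma membrane represses ribosomal protein genes through the sensors and the protein kinase C of that pathway. A part in this for the MAP kinase at the end of the cascade was not tested here.

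The deletion libraries a and b held 31674270 and 31609185 reads on genes, and the parental libraries a and b held 34871842 and 33027324. The letters a and b name libraries within a strain and pair nothing across strains. The deleted gene, mpkA (AN5666), had 6 and 3 reads in the deletion strain against 6993 and 6437 in the parental strain. Markers of conidia and conidiophores, the other cells that a mycelial culture can hold, were scarce. Their 7 genes together took 0.00237% and 0.00223% of reads in the deletion libraries against 0.00612% and 0.00569% in the parental libraries, and they did not move one way. The authors' deposited table calls brlA, abaA, rodA and wA lower and yA higher, while wetA and dewA had no call. The parental sum came mostly from abaA, with 114 and 112 reads in the deletion libraries against 1325 and 1214 in the parental libraries. The spore pigment gene yA had 386 and 365 against 119 and 101, and the least abundant, dewA, had 8 and 5 against 11 and 5. In bulk RNA, a change in the number of cells of a kind and a change in RNA per cell cannot be told apart.

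All 51 ribosomal protein genes were higher in the mpkA deletion strain. The class took 10.4% and 10.6% of all reads on genes in the deletion libraries, against 3.82% and 3.90% in the parental libraries. That is a mean of 10.5% ± 0.167 against 3.86% ± 0.0570 (SD, n = 2 each), a difference of 6.67 percentage points and a ratio of 2.73. An exact two-sided permutation test over the 4 libraries gave p = 0.33, the smallest value that 2 against 2 libraries can give. In reads, the class held 3296220 and 3364184 in the deletion libraries against 1331548 and 1287747 in the parental ones.

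In the table that the authors deposited, all 51 genes were called higher at a q-value under 0.05, against 36.3% of the 10505 genes with a q-value, and 0 were called lower, against 35.9%. A rise of at least 2-fold was called for 41 of the 51, against 9.12% of the genes tested. The median change of the 51 genes was 1.62 on the log2 scale (3.07-fold), with a range of 0.47 to 2.24, where the median of all genes tested was -0.02. In every one of the 51 genes both deletion libraries lay above both parental libraries in normalized reads, which was so for 43.0% of all genes tested. Normalized reads are the reads of a gene divided by the size factor of its library.

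The quasi-likelihood test of edgeR on reads recovered per library also called 51 of 51 higher, where 42.5% of the 9338 genes it tested were. Scaling to library totals in place of TMM moved the median of all genes to -0.21, from -0.02 with TMM, and the median of the 51 genes to 1.40. It turned the split of calls over all genes to 3066 higher and 4997 lower, where TMM scaling gave 3966 higher and 4109 lower. With library totals 51 of 51 ribosomal protein genes were again called higher, against 32.8% of genes.

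**Figure D1:**
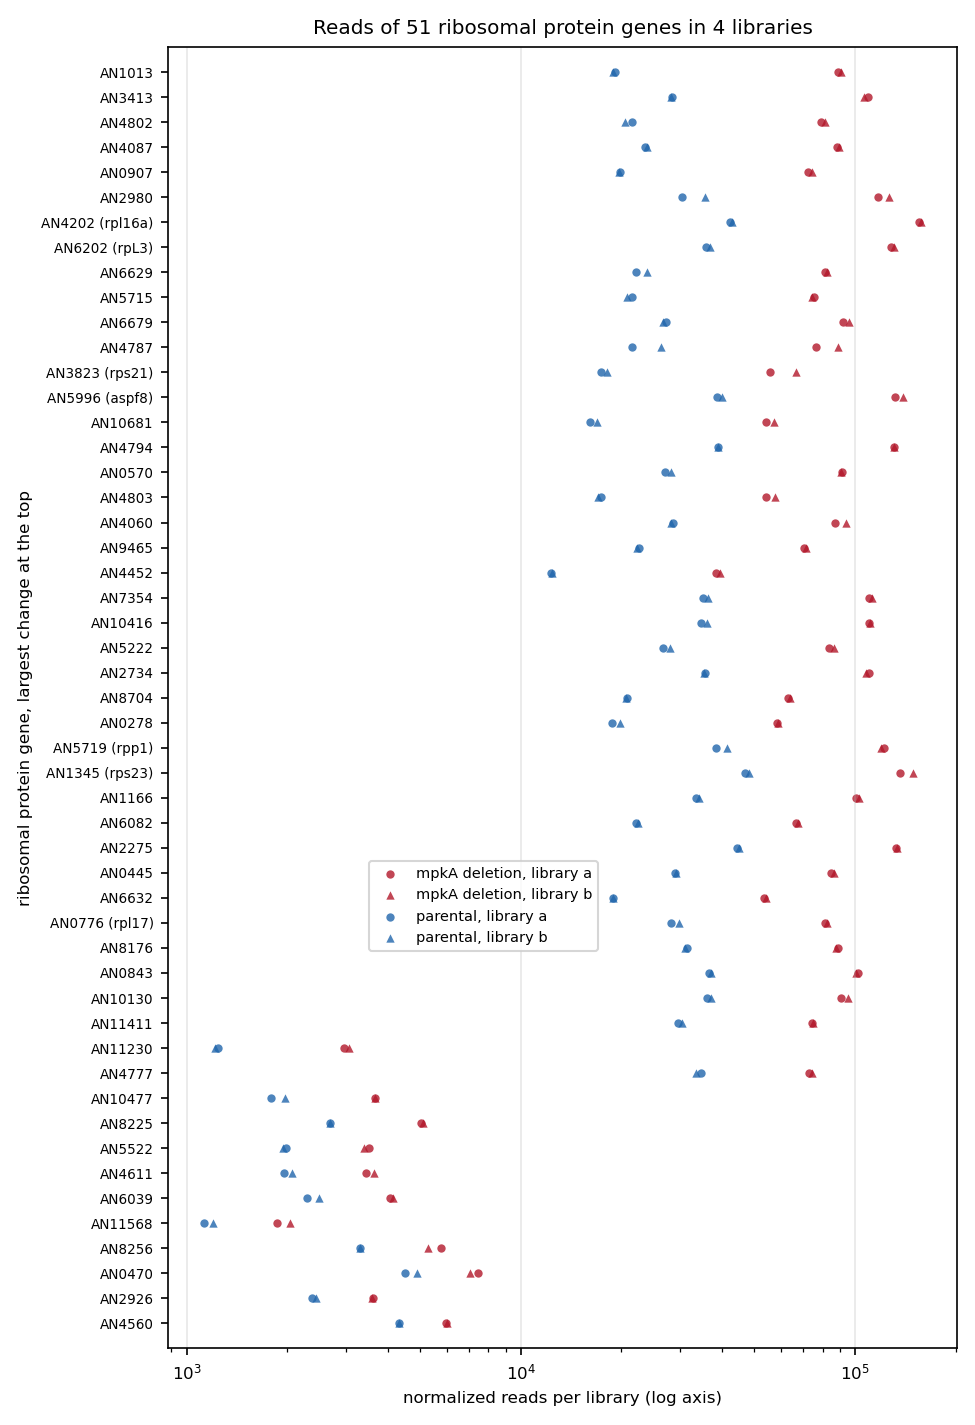
Normalized reads (log axis) of each of the 51 ribosomal protein genes in the 2 mpkA deletion libraries (red) and the 2 parental libraries (blue), ordered from the largest change at the top to the smallest at the bottom. In each row the red points lie to the right of the blue points, and 11 genes sit apart at 1163 to 4696 mean parental reads.

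The genes fell into 2 levels that the rule did not use. In the parental strain 40 genes had means of 12370 to 47394 normalized reads and 11 had means of 1163 to 4696, with none of the class between. The gap holds for the genes that the rule took. Of the further genes with cytosolic subunit text described below, AN11419, AN1711 and AN5702 lay in it, with parental means of 9942, 5537 and 5541. AN11419 was 4.60-fold higher in the deletion strain, AN1711 1.30-fold and AN5702 1.32-fold. The lowest of the upper level, AN4452, averaged 38833 normalized reads in the deletion strain against 12370 in the parental strain. The highest of the lower level, AN0470, averaged 7226 against 4696. The gap is one of reads per gene. Per kb of gene span, introns included, AN4452 (span 2713 bp) had 4559 normalized reads in the parental strain, and AN4560 of the lower level had 4587.

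The 40 abundant genes were 2.16-fold to 4.73-fold higher in the deletion strain, with a median log2 change of 1.66 and an SD across genes of 0.20. All 40 changed at least 2-fold. The 11 scarcer genes were 1.39-fold to 2.44-fold higher, with a median log2 change of 0.78, and 1 of them, AN11230, changed at least 2-fold. The split by level was chosen after the values were seen, so the 2 medians are a description. The abundant genes accounted for 10.3% and 10.5% of reads in the deletion libraries against 3.73% and 3.81% in the parental libraries. The scarcer genes took 0.134% and 0.133% against 0.0908% and 0.0936%.

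**Figure D2:**
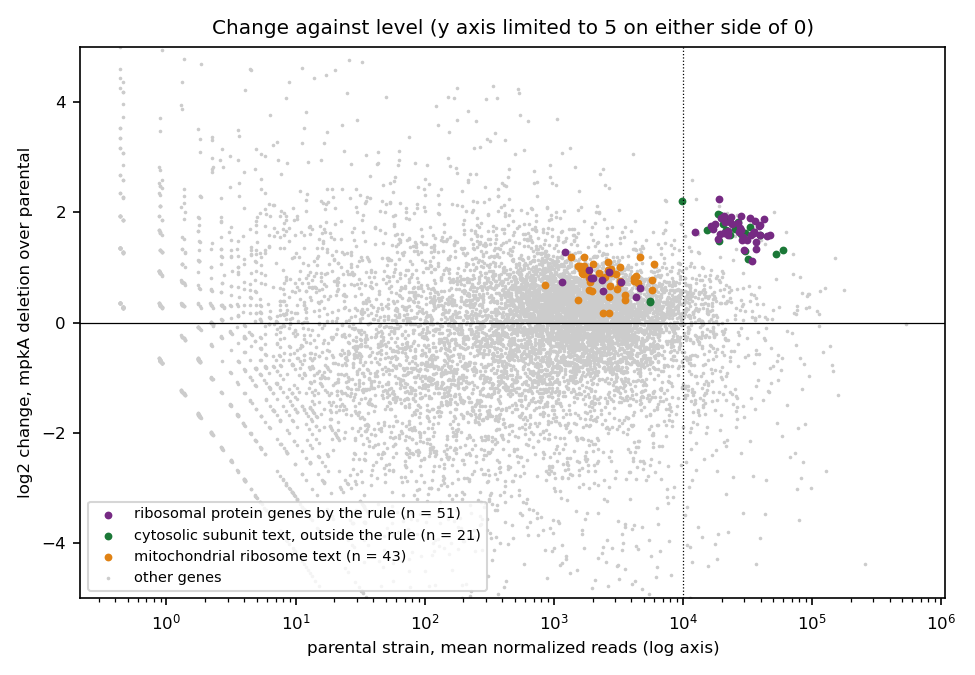
Log2 change, mpkA deletion over parental, against mean normalized parental reads (log axis) for the 51 ribosomal protein genes (purple), 21 further genes with cytosolic ribosomal subunit text (green), 43 mitochondrial ribosome genes (orange) and other genes (grey), with the y axis limited to 5 on either side of 0. Of the purple points, 40 lie right of the dotted line at 10000 reads with log2 changes of 1.11 to 2.24, and the other 11 lie at the levels of the orange points, 10 of them within the changes of those points and AN11230 above.

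The large subunit gave 22 of the 51 genes by annotation text or symbol, 19 of them abundant. The 19 rose 2.83-fold to 4.73-fold, with a median log2 change of 1.66. They took 4.99% and 5.10% of all reads in the deletion libraries against 1.73% and 1.79% in the parental libraries.

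The largest change of the class was that of AN1013, positions 1808115 to 1809804 on the minus strand of an unnamed chromosome in the files. Its text names it a putative L5, the large subunit protein that in yeast binds the 5S rRNA. AN1013 had 89117 and 90630 normalized reads in the deletion libraries against 19191 and 18830 in the parental libraries. Both deletion libraries were over 4 times the parental ones, and libraries of the same strain were close. Its mean was 4.73-fold higher (edgeR log2 change 2.22, SE 0.03, adjusted p = 8.86e-20).

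AN4802, annotated as L21 (positions 942812 to 944036, plus strand), had 79162 and 81351 normalized reads in the deletion libraries against 21486 and 20548 in the parental libraries, a 3.82-fold difference without overlap. Its neighbour AN4803, a small subunit gene whose text speaks of rRNA maturation and translational fidelity, is transcribed away from it, with 210 bp between the 2 genes. AN4803 had 54042 and 57628 normalized reads in the deletion libraries against 17316 and 17030 in the parental libraries, 3.25-fold. Both genes of this head-to-head pair were higher, by unequal amounts.

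The most abundant gene of the class in the deletion strain was AN4202 (rpl16a), with 155010 and 157704 normalized reads in the deletion libraries against 42145 and 42941 in the parental libraries. AN6202 (rpL3), whose product in yeast lies near the site of peptide bond formation, had 128230 and 131001 against 35749 and 36751. The groups were far apart in both, at 3.68-fold for AN4202 and 3.58-fold for AN6202. AN2980, with cytosolic large subunit text, had 117481 and 126701 in the deletion libraries against 30282 and 35578 in the parental libraries, 3.71-fold, with more room between the libraries of each strain.

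Among the others of the large subunit, AN6629 (annotated L14) was 3.55-fold higher, AN4787 (L37) 3.48-fold, AN10681 3.38-fold, AN0570 3.31-fold and AN9465 3.16-fold. AN7354, AN10416, whose text compares it to L15 and L27, and AN2734, an rRNA-binding assembly protein by its text, were 3.13-fold, 3.12-fold and 3.08-fold higher. AN8704 (L24a) was 3.07-fold higher and AN0278 3.04-fold. AN6082, whose text also gives a role in splicing, was 3.0-fold higher and AN2275 2.98-fold. The smallest changes among the 19 were 2.95-fold for AN0445 and 2.83-fold for AN0776 (rpl17).

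The small subunit gave 14 genes, all of them abundant, which rose 2.50-fold to 3.83-fold with a median log2 change of 1.69. Together they took 3.34% and 3.45% of reads in the deletion libraries against 1.24% and 1.25% in the parental libraries. AN3413 (positions 798212 to 799533, minus strand), described as homologous to S2 and S5, changed most. It had 109590 and 106081 normalized reads in the deletion libraries against 28267 and 28086 in the parental libraries. The groups did not overlap, and the mean was 3.83-fold higher (edgeR log2 change 1.92, SE 0.03, adjusted p = 6.41e-19).

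AN4087, a putative 40S protein, had 88244 and 89411 normalized reads in the deletion libraries against 23532 and 23806 in the parental libraries, 3.75-fold. AN0907, with cytosolic small subunit text, had 72227 and 74219 against 19778 and 19605, 3.72-fold. In both genes the libraries of a strain were near each other and those of different strains far apart.

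AN1345 (rps23), whose product lies at the decoding centre in yeast, had 136696 and 148954 normalized reads in the deletion libraries against 46700 and 48088 in the parental libraries. It was the most abundant gene of the class in the parental strain and rose 3.01-fold. AN10130, with cytosolic small subunit text, had 90535 and 95287 in the deletion libraries against 36091 and 37161 in the parental libraries, a smaller difference of 2.54-fold. AN11411 changed least in the small subunit, with 74286 and 75052 against 29497 and 30249, 2.50-fold.

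Of the rest of the small subunit, AN5715 (S26) was 3.54-fold higher, AN6679 3.50-fold and AN3823 (rps21) 3.46-fold. AN4060 (S16) was 3.19-fold higher and AN5222, with small subunit assembly in its text, 3.11-fold. AN6632 (S28) was 2.86-fold higher, and AN0843, whose text gives a role in rRNA export from the nucleus, 2.74-fold.

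The acidic stalk, a protruding arm of the large subunit that recruits elongation factors, gave 2 genes. AN5996 carries the symbol aspf8, the name of the Aspergillus fumigatus allergen that is the P2 stalk protein. It had 131659 and 138719 normalized reads in the deletion libraries against 38724 and 40092 in the parental libraries, 3.43-fold. AN5719 (rpp1) had 121801 and 119513 against 38442 and 41245, 3.03-fold. Neither gene overlapped between strains, and the 2 genes together took 0.720% and 0.730% of reads in the deletion libraries against 0.254% and 0.267% in the parental libraries.

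The text of 13 genes gives no subunit. The 5 abundant ones rose 2.16-fold to 3.36-fold: AN4794 by 3.36-fold, AN4452 by 3.14-fold, AN1166 by 3.01-fold, AN8176 by 2.83-fold and AN4777 by 2.16-fold. AN4777, described only through its orthologs, had 73059 and 74467 normalized reads in the deletion libraries against 34685 and 33494 in the parental libraries. It was the smallest change among the 40 abundant genes, and its groups still lay clear of each other.

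**Figure D3:**
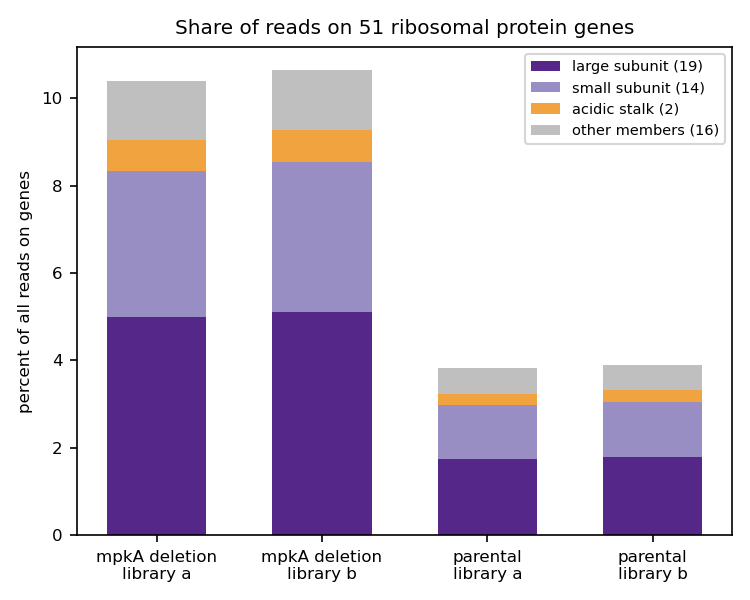
Percent of all reads on genes taken by ribosomal protein genes in each library, stacked by abundant large subunit, small subunit, acidic stalk and other genes, with the mpkA deletion libraries on the left. The bars reach 10.4% and 10.6% in the deletion libraries, against 3.82% and 3.90% in the parental ones, and each part is larger in the deletion libraries.

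The 11 scarcer genes were 3 with large subunit text (AN8225, annotated L1, AN2926 and AN4560) and 8 with none (AN0470, AN4611, AN5522, AN6039, AN8256, AN10477, AN11230 and AN11568). Of the 9 genes of the class known only from a predicted protein domain, 7 were scarce, while 4 of the 42 described through orthologs or by a protein name were. The 5 smallest changes of the class were all among the scarcer genes. AN4560, a putative 60S protein, had 5984 and 6000 normalized reads in the deletion libraries against 4312 and 4321 in the parental libraries, 1.39-fold (edgeR log2 change 0.46, SE 0.03, adjusted p = 3.59e-10). AN2926, also a putative 60S protein, had 3602 and 3597 against 2372 and 2445, 1.49-fold. In both, the libraries of a strain were nearly equal. Much of these 2 rises lay in the scaling: AN4560 had 5381 and 5365 reads before scaling in the deletion libraries against 4954 and 4684 in the parental libraries, and with library totals its edgeR log2 change was 0.26 and that of AN2926 0.37, where TMM gave 0.46 and 0.56.

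AN0470 had 7428 and 7024 normalized reads in the deletion libraries against 4506 and 4886 in the parental libraries, 1.54-fold. AN8256 had 5766 and 5282 in the deletion libraries against 3308 and 3299 in the parental libraries, 1.67-fold. AN11568, the shortest gene of the class with a span of 317 bp, had 1859 and 2032 against 1127 and 1199, 1.67-fold. The libraries of a strain differed more here than in AN4560, and the groups did not overlap in any of the 3 genes.

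The other 6 scarcer genes rose more. AN11230 had 2952 and 3058 normalized reads in the deletion libraries against 1245 and 1217 in the parental libraries, 2.44-fold, which placed it between AN11411 and AN4777 in the order of changes. AN10477 was 1.95-fold higher, AN8225 1.89-fold, AN5522 and AN4611 1.76-fold each and AN6039 1.72-fold.

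The text of the 8 scarcer genes without a subunit does not say that the product is cytosolic. The values of all 11 were set beside the 43 tested genes of the mitochondrial ribosome, a separate ribosome that translates the few mRNAs of the mitochondrial genome. Those had parental means of 858 to 5945 normalized reads and log2 changes of 0.18 to 1.20. All 11 scarcer genes lay in that range of levels, and 10 of the 11 in that range of changes, the exception being AN11230. Of the 40 abundant genes, 1, AN4777, lay in the range of changes. That 0 of them lay in the range of levels follows from the split by level. The ranges are not special to the mitochondrial ribosome. The 41 ribosome assembly genes described below had medians within both, at 3262 normalized parental reads and a log2 change of 0.54. The share of all genes within these ranges was not counted, so the match does not tell where a product belongs. Where the products of the scarcer genes reside was not tested, and they remain in the counts given for the class.

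When reads were scaled to the summed reads of the 51 genes in each library, edgeR called 16 genes higher and 20 lower in the deletion strain and left 15 without a call. On that scale 3.0% of all genes were called higher and 94.2% lower. The 20 were the 11 scarcer genes and 9 abundant ones, and the 16 were all abundant. By construction, genes that rose more than the summed class come out higher on this scale and genes that rose less come out lower. The place of the 11 scarcer genes thus restates their smaller rise. Leaving out 1 library at a time gave 11 to 15 higher and 18 to 20 lower. This scaling was chosen after the values were seen. The genes that moved furthest on it were picked by the same values, so their p-values are descriptions.

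AN1013 moved furthest up within the class, with 2.43% and 2.41% of the reads of the 51 genes in the deletion libraries against 1.66% and 1.59% in the parental libraries (log2 change on the scale of the class 0.58, SE 0.04, adjusted p = 5.29e-16). AN3413 and AN4802 followed at 0.27 each. Among abundant genes AN4777 moved furthest down, with 1.99% and 1.98% against 2.99% and 2.82% (-0.55, SE 0.04, adjusted p = 4.13e-15). AN11411 and AN10130 stood at -0.34 and -0.32. Cytosolic subunit genes outside the rule, described below, had changes near both ends. By the authors' means, AN11419 changed by 2.20 on the log2 scale where AN1013 changed by 2.24. AN6083 and AN2301 changed by 1.16 and 1.24 where AN4777 changed by 1.11. Large and small subunit genes were found in both directions: AN4202, AN6202 and AN6629 of the large subunit and AN4087, AN0907 and AN5715 of the small subunit were called higher, and AN0776 and AN0445 of the large and AN0843 and AN6632 of the small subunit lower. Of the stalk genes, AN5996 was called higher at 0.12 and AN5719 had no call at -0.06.

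**Figure D4:**
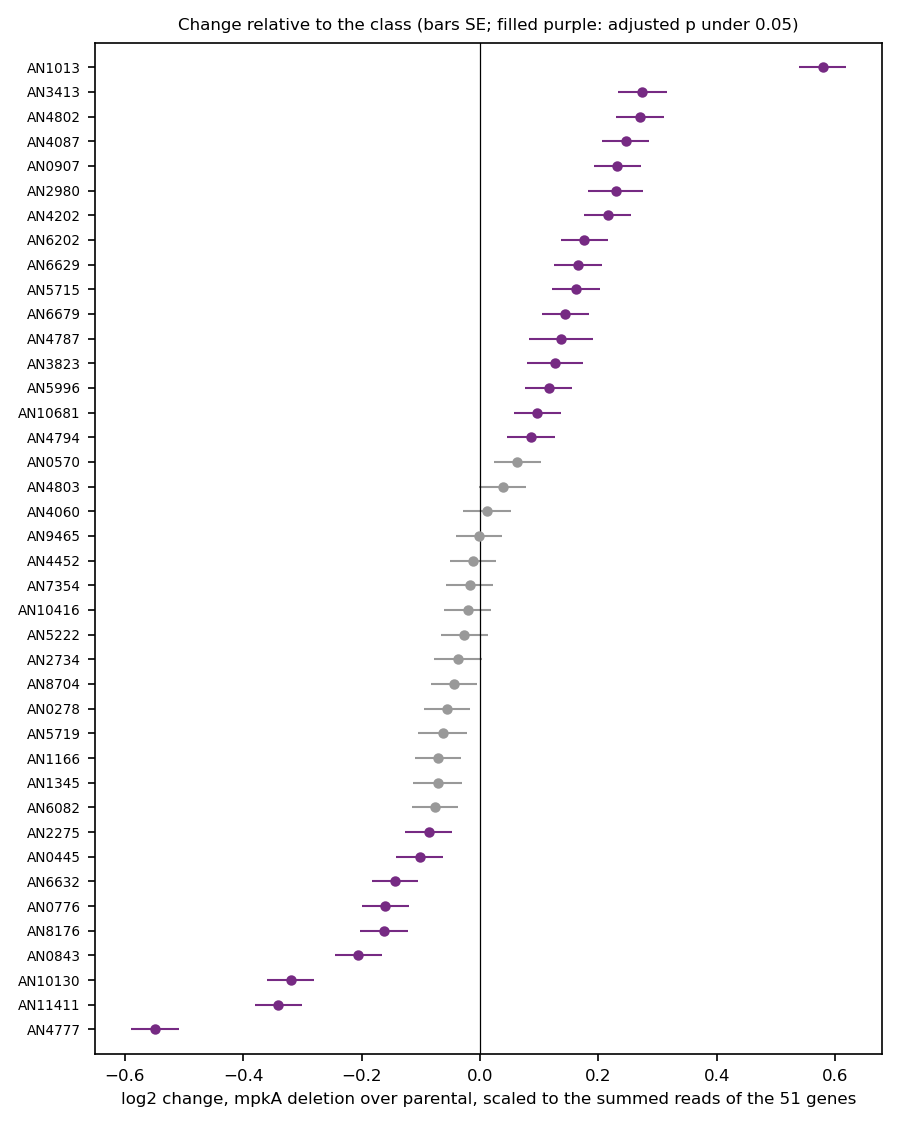
Log2 change, mpkA deletion over parental, of the 40 abundant ribosomal protein genes when reads are scaled to the summed reads of all 51, with bars of 1 SE, purple for an adjusted p under 0.05 and grey for none. Among these 40, AN1013 stands at 0.58 above the next gene at 0.27, and AN4777 at -0.55 below the next at -0.34.

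Across the 40 abundant genes, log2 reads per kb of span in the deletion strain against the parental strain gave Pearson's r of 0.938 and Spearman's rho of 0.915, a description across genes that share libraries and gene spans. Per kb, AN5996 ranked 1st in both strains, with 151218 normalized reads in the deletion strain against 44081 in the parental strain, and AN1345 ranked 2nd in both, with 129020 against 42813. AN4777 ranked 11th in the deletion strain and 3rd in the parental strain, at 83822 against 38738 per kb. AN4202 ranked 3rd in the deletion strain and 8th in the parental strain. The log2 change against log2 parental reads per kb gave r of -0.34 and rho of -0.34 over the same 40 genes, and against span r of 0.17 and rho of 0.11. The parental level enters both sides of the first relation.

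Libraries of a strain differed little. The median of the absolute log2 ratio between them over the 51 genes was 0.03 in the deletion strain and 0.04 in the parental strain. In 12 genes the 2 libraries of a strain were more than 0.1 apart on the log2 scale. The widest were AN4787, with 76640 and 89205 normalized reads in the deletion libraries against 21493 and 26203 in the parental libraries, and AN3823, with 55749 and 66758 against 17327 and 18103. In both the groups still did not overlap. The median log2 change of the 39 genes without these 12 was 1.62.

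The spans of 8 genes overlap a gene on the opposite strand, by 7 to 360 bp, and reads there cannot be assigned to a strand. The longest overlap is that of AN10130 with AN0954, which averaged 565 normalized reads in the deletion strain against 450 in the parental strain. The partner AN9434, which shares 49 bp with AN11230, was the more abundant of that pair, with 3778 in the deletion strain against 3251 in the parental strain. The median log2 change of the 43 genes with no overlap was 1.62.

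Further genes whose text places the product in the cytosolic large or small ribosomal subunit lie outside the rule, since their text lacks both phrases. There were 21, a list drawn after values had been seen, and the text of 1 of them, AN4494, also names the mitochondrion. All 21 were called higher, and the median log2 change was 1.62, with 19 at least 2-fold. AN11419, with large subunit text, changed most, with 39413 and 42516 reads in the deletion libraries against 11377 and 10818 in the parental libraries, 4.60-fold. AN1711, whose text also gives nuclear export of the large subunit, changed least, with 6456 and 6407 reads against 6354 and 6009, 1.30-fold after scaling. Here the reads themselves lie close and the strains are set apart mainly by their size factors. The 72 genes of both lists together took 14.9% and 15.3% of reads in the deletion libraries against 5.58% and 5.68% in the parental libraries.

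Other parts of the translation machinery were compared by their annotation text, with calls at a q-value under 0.05 in the authors' deposited table unless library totals are named. All 43 tested genes of the mitochondrial ribosome were called higher, and the median log2 change was 0.83, with 10 at least 2-fold. They ran from AN3595, with 2848 and 2774 reads in the deletion libraries against 1554 and 1500 in the parental libraries (2.29-fold), to AN10161, with 2720 and 2690 reads against 3009 and 2940 (1.13-fold after scaling). With library totals 41 of the 43 were called higher and 0 lower.

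Of 41 ribosome assembly genes, taken by words in their text for ribosome biogenesis, rRNA processing or subunit assembly, 37 were called higher and 0 lower. Their median log2 change was 0.54. A gene with rRNA cleavage in other words, AN4599, lies outside this list and was called lower, 2.50-fold. Other such genes were not sought. AN5960, with small subunit assembly in its text, was 4.74-fold higher, at 52015 and 55643 reads in the deletion libraries against 14695 and 13597 in the parental libraries. AN3455, of the small subunit processome, had a ratio of 0.967 and a q-value of 0.374. Of the 41, 5 are also among the 21 genes with cytosolic subunit text, and the remaining 36 had a median log2 change of 0.49, with 32 called higher and 0 lower. With library totals 28 of the 41 were called higher and 5 lower.

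Translation factors were mixed, with 21 of 31 called higher and 5 lower and a median log2 change of 0.25. AN7105, the eIF3c initiation factor subunit by its text, was 3.03-fold higher, with 35972 and 34799 reads in the deletion libraries against 14850 and 14199 in the parental libraries. AN6067, with initiation factor and GTPase activator activity in its text, was 3.57-fold lower, with 22506 and 22038 reads against 100079 and 97914. With library totals the calls were 14 higher and 11 lower.

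Among 16 aminoacyl-tRNA synthetases, which load amino acids onto tRNAs, 11 were called higher and 4 lower, with a median log2 change of 0.19, and with library totals 7 were higher and 7 lower. AN6253, a phenylalanine enzyme subunit, was 2.46-fold higher, and AN0705, an isoleucine enzyme, was 2.46-fold lower. Of 27 genes with RNA polymerase I or III in their text, the polymerases that make rRNA and tRNA, 11 were called higher and 9 lower, with a median log2 change of 0.10, and with library totals 7 were higher and 13 lower. These shares, 40.7% higher and 33.3% lower, lie near the 36.3% and 35.9% of all genes tested. For the synthetases they were 68.8% and 25.0%, and for the translation factors 67.7% and 16.1%. Among the 27, the largest rise was 2.59-fold (AN0908, with binding to RNA polymerase III promoters in its text). The largest fall was 2.50-fold (AN4599, with rRNA cleavage and termination of RNA polymerase I transcription in its text). Neither text names a polymerase subunit, so the list is wider than the polymerases themselves. Whether these lists differ from the ribosomal protein genes was not tested as lists, and their counts and medians are descriptions.

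**Figure D5:**
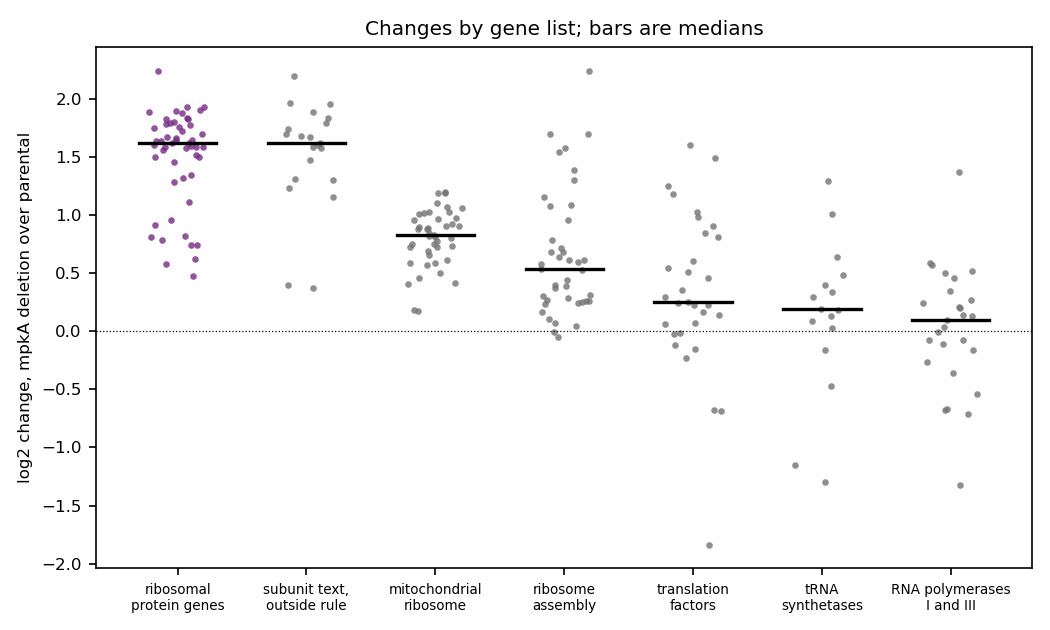
Log2 change, mpkA deletion over parental, of each tested gene in 7 lists of the translation machinery, with bars at the medians. The median is 1.62 for the 51 ribosomal protein genes and for the 21 further subunit genes, 0.83 for the mitochondrial ribosome, 0.54 for ribosome assembly, and 0.25, 0.19 and 0.10 for the last 3 lists, where points lie on both sides of 0.

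Other genes above a floor that the 40 abundant ribosomal protein genes also passed were split in direction. With the level taken as the mean of both strains, at least 10000 normalized reads, 514 genes lay outside the 51 and the 21 with subunit text. Of these, 56.6% were called higher and 36.8% lower, 12.5% at least 2-fold higher and 15.8% at least 2-fold lower, with a median log2 change of 0.22. All 40 abundant ribosomal protein genes passed the same level, but the sets were not matched above it. The median of the 514 genes was 17004.5 normalized reads in the deletion strain against 16615 in the parental strain. For the 40 genes it was 88480 against 28256. Taken on the parental mean alone, which by construction lets in genes high only in the parental strain, the level was also passed by 514 such genes, with 40.7% called higher and 52.9% lower, 7.20% and 27.6% at least 2-fold, and a median of -0.16. Both levels were set after the values were seen.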

How the data were processed

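Bowtie2, HTSeq and DESeq are named in the submitters' processing notes; which versions, genome build and counting options were used is not given in the sources used here. There are 3 tables, deposited by the authors, whose signal values are means over the 2 libraries of a strain of reads per gene divided by a size factor. The deposited fold ratio is parental over deletion and was turned here; the p-values and q-values beside it are also the authors'. Left aside were 2 columns of values that match none of the series' samples.

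The design foresaw that means might stand in place of counts, and the authors' comparison at a q-value under 0.05 is the main result. Each mean stands in 2 tables under different size factors, which gave whole reads per library for 100% of the 10930 genes in each strain (tolerance 0.25 reads, largest deviation 0.155 reads). These entered edgeR 4.0.16 (R 4.3.3; TMM, filterByExpr, Benjamini-Hochberg adjustment), DESeq2 1.42.0 and limma 3.58.1 (prior count 2), each an alternative, with other scalings, no filter and each library left out; recovery and edgeR were tested on simulated data. SE is the log2 change divided by the square root of edgeR's F.

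The genes, the lists and the rule for values in every library (the 4 marker genes, the 5 largest and 5 smallest changes, the 5 highest per kb in the parental strain) were chosen with earlier results of these data known; other genes were named after their values were seen. Positions are as in the files, which name no chromosome. Promoters and proteins were not analysed here.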

Additional observations from a re-analysis of the deposited data

How the results depend on the processing

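All 51 ribosomal protein genes kept their direction in 510 of 510 values, which are 51 genes under 10 alternatives on the same 4 libraries. The alternatives were edgeR with TMM, DESeq2-type size factors, library totals or no filter, DESeq2, limma, and each library left out. With all 4 libraries the 51 were called higher in each, and in the authors' deposited table at a q-value under 0.01. Over all genes, 3579 of 10505 were called higher at that q-value, 3736 of 10100 with DESeq2 and 3944 of 9338 with limma. With edgeR it was 4033 of 9338 with DESeq2-type size factors and 4016 of 10930 with no filter. The median log2 change of 1.62 was 1.40 with library totals, 1.80 for the 17 genes with ribosomal protein in their text, 0.78 for the 11 genes under 10000 parental reads, and 1.59 to 1.63 with each library left out. The difference in share of 6.67 points was 7.12 without the 10 most abundant other genes. It was 4.11 for the 34 genes with structural constituent text and 2.56 for the 17 others. Without the 2 stalk genes, AN5996 and AN5719, it was 6.20. Those 2 were left out because their text matched a search for kinase, methyltransferase, acetyltransferase or snoRNA. Genes with functions under other words stayed in. The difference was 0.0413 for the 11 scarcer genes, and 6.55 to 6.78 with each library left out. Narrower lists hold fewer reads by construction. Over all genes, 3810 higher and 3775 lower became 958 and 1904 with a 2-fold minimum, and 3774 to 3926 higher and 3889 to 4036 lower by edgeR with each library left out. Relative to the class, the 16 higher and 20 lower became 11 to 15 and 18 to 20 with each library left out. No paired analysis was possible because the recovered libraries carry no replicate numbers. The least covered gene of the class, AN11568, had 1672 and 1817 reads in the deletion libraries against 1295 and 1300 in the parental libraries, with an SE of 0.05 on the log2 scale, where AN1013 had 0.03.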
